A study of Mus musculus with 13 samples.

Results

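The genes described here are the 7 that encode the killing machinery of cytotoxic lymphocytes: the granzymes Gzma, Gzmb and Gzmk, the pore-forming protein perforin (Prf1), the granule membrane protein Nkg7, the granule proteoglycan serglycin (Srgn) and the death ligand Fasl. They were picked by gene name from the table of estimated counts, which listed 21084 genes, and all 7 were among the 15835 genes with enough counts to be tested. They were followed over 13 bulk RNA sequencing libraries, each of sorted gamma delta intraepithelial lymphocytes (IELs) of the small intestine, from wild-type mice. Intraepithelial lymphocytes are T cells lodged within the gut lining, among its epithelial cells. The first injection, intraperitoneal, was 200 µg of UC7-13D5, which binds the gamma delta receptor of these cells, or 200 µg of Armenian hamster IgG. The labels place the antibody at 48 and 24 h before isolation, and the design text at 48 or 24 h before the next injection, which leaves the number of doses per mouse uncertain. The second injection, intravenous and 5 h before isolation, held 1 µg of the mouse cytokine interferon alpha (IFNa) or only phosphate buffered saline (PBS). The groups were UC7-IFNa (UC7-13D5 then IFNa, 3 libraries), UC7-PBS (UC7-13D5 then PBS, 3), IgG-IFNa (IgG then IFNa, 4) and IgG-PBS (IgG then PBS, 3), so every mouse carried a hamster antibody and no group was left uninjected. Age, sex and the number of mice behind a library are not given in the sources used here. P-values therefore measure the spread between libraries.

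A cytotoxic lymphocyte stores granzymes, which are serine proteases, in acidic granules where they are held on the chains of serglycin. When the cell meets a target, the granules fuse with its membrane, perforin opens pores in the target, and the granzymes enter and cleave proteins that lead to cell death. Fas ligand is a second route, in which the ligand binds the receptor Fas on the target. Intestinal intraepithelial lymphocytes are known for carrying granzyme transcripts without prior stimulation. Inhibitors of the serpin family protect a lymphocyte from its own granzymes.

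Levels are in CPM, the counts of a gene scaled to a common library total. Some libraries stood apart, and where leaving one out moved a value most, both values are given. Totals ran from 19867201 to 26895876 estimated counts. UC7-IFNa library 2 had the lowest total, a first principal component of 108 against -26.5 to 11.1 in the other 12, and 1.14% of its counts on the ribosomal RNA gene Rn18s against 0.0866% to 0.333%. Sex-linked transcripts differed with the antibody: Xist was at most 1.08 CPM in the UC7-13D5 libraries and 265 to 345 CPM in IgG-PBS, while 4 summed Y-linked transcripts were at 132 to 329 CPM in the UC7-13D5 libraries and at most 0.31 CPM in IgG-PBS. Both kinds of transcript were found in IgG-IFNa 3 and 4 (68.3 and 23.4 CPM of Xist, 210 and 320 CPM of Y-linked transcripts). Some fits below use the Y-linked transcripts as a covariate. Within groups these varied most in IgG-IFNa, with 2.15 and 1.67 CPM in libraries 1 and 2. Values with the covariate therefore carry mainly that contrast over to the other groups. In the comparisons of antibodies, a response to UC7-13D5 and a difference between mice of unlike sex cannot be told apart. IFNa against PBS after IgG, which also enters the averaged IFNa comparison, is unbalanced too, through IgG-IFNa 3 and 4. There edgeR called 131 genes at an adjusted p under 0.05, 21 without IgG-IFNa 3 and 4, and 140 without IgG-IFNa 1 and 2. With the Y-linked transcripts as a covariate it called 19. All 12 genes listed for gamma delta T cells were present. Among them the gamma delta receptor constant genes Trdc, Trgc1, Trgc2 and Trgc4 were at 159 to 211, 1223 to 2419, 803 to 1191 and 446 to 758 CPM. The list also holds genes that other T cells express, such as Cd3e at 811 to 1672 CPM. Transcripts listed for alpha beta T cells were present too, at uneven levels. The receptor constant genes were the highest, with Trac at 165 to 480 CPM and Trbc1 and Trbc2 above it. Cd4 was at 1.47 to 5.06, Cd5 at 0.475 to 2.98 and Zbtb7b at 5.86 to 18.8 CPM. Cd8b1 was at 3.88 to 60.6 and Cd6 at 26.6 to 137 CPM. Which cells the constant gene transcripts came from was not tested. Among markers of natural killer and innate lymphoid cells, which use the same granule genes, Ncr1, Il22 and Il23r stayed at or below 0.434 CPM and Eomes at or below 2 CPM, while Klrb1c was at 15.4 to 44.9, Klra7 at 2.1 to 33.7 and Gata3 at 56.9 to 82.5 CPM. In bulk samples, fewer cells of a type and less RNA per cell cannot be told apart.

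The stretches of DNA just before the start of 4 of the genes are shown because these genes are the ones the results turn on: Gzma, Gzmb and Gzmk differ widely in level, and Nkg7 differed most in a single library. They are the 250 bases before the RefSeq start in the mouse build GRCm38.p6, written 5′ to 3′ on the strand of the gene, and capitals mark every match to a motif searched on both strands.
Gzma, chr13:113100982-113101231, minus strand: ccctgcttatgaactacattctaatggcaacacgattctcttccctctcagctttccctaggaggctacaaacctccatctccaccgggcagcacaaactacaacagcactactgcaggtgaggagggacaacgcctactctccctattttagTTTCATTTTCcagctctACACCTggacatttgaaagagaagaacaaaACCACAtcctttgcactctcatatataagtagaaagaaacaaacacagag
Gzmb, chr14:56262335-56262584, minus strand: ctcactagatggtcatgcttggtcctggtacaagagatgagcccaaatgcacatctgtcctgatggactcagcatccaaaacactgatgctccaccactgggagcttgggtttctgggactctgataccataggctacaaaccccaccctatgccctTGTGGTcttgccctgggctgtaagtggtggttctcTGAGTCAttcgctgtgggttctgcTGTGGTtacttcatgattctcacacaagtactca
Gzmk, chr13:113180966-113181215, minus strand: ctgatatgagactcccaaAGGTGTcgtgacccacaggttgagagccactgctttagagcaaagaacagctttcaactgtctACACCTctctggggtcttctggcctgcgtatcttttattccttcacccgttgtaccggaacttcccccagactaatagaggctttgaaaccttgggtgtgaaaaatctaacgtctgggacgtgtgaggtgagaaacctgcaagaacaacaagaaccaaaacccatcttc
Nkg7, chr7:43436888-43437137, plus strand: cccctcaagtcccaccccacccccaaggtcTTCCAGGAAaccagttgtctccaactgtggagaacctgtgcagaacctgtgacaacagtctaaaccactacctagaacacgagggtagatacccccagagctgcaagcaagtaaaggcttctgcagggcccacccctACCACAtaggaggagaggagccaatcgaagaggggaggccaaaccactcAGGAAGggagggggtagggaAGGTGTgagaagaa
The interferon-stimulated core was searched as GAAA, any 2 bases and GAAA. The gamma-activated site, which STAT proteins bind, was searched as TTCNNNGAA. The site of AP-1 factors was TGANTCA and the core of the CRE element was TGACGT. RUNX factors were searched for by TGTGGT, and ETS factors by AGGAAG. The core bound by T-box factors such as T-bet and Eomes was AGGTGT, and the TATA box was TATAAA. In the Gzma window the capitals are 1 interferon-stimulated core whose first base lies 97 bases before the start, a T-box core at 80 and a RUNX site at 50, each on the opposite strand. Gzmb had RUNX letters at 93 and 34 bases and AP-1 letters at 58. Gzmk had T-box cores at 232 and 169 bases. Nkg7 had gamma-activated letters at 220, RUNX at 83, ETS at 34 and a T-box core at 14. No match in these windows overlapped another. Of 32851 promoter windows of the same length in that table, 2.98% held the interferon-stimulated core, 7.02% the gamma-activated site, 6.75% AP-1, 6.47% the CRE core, 14.0% RUNX, 29.5% ETS, 11.8% the T-box core and 12.4% the TATA letters. A match describes the letters and is not evidence of a bound site.

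The 7 genes together took 5.22% ± 0.974 of a library's counts in UC7-IFNa (SD, n = 3), 5.25% ± 0.56 in UC7-PBS (n = 3), 4.96% ± 0.559 in IgG-IFNa (n = 4) and 4.19% ± 0.337 in IgG-PBS (n = 3). Gzma was the most abundant of all 21084 genes by mean share and Gzmb ranked 2. Nkg7 ranked 11, Srgn 55, Fasl 81, Prf1 847 and Gzmk 1027. Divided by the length of the longest coding transcript, the mean level over all 13 libraries was 30083 CPM per kb for Gzma, 8724 for Gzmb, 4679 for Nkg7, 782 for Srgn, 527 for Fasl, 136 for Gzmk and 82.2 for Prf1. Gzma stood clear of Gzmb in every library (at least 22276 CPM per kb against at most 9807). Nkg7 overlapped Gzmb through UC7-IFNa library 2 alone, at 10888 CPM per kb. Srgn and Fasl overlapped at the edges of their ranges, and Gzmk (54 to 289) and Prf1 (60.6 to 104) overlapped. The cells thus held far more granzyme A and B transcript than perforin transcript per unit of length in all 4 groups.

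**Figure D1:**
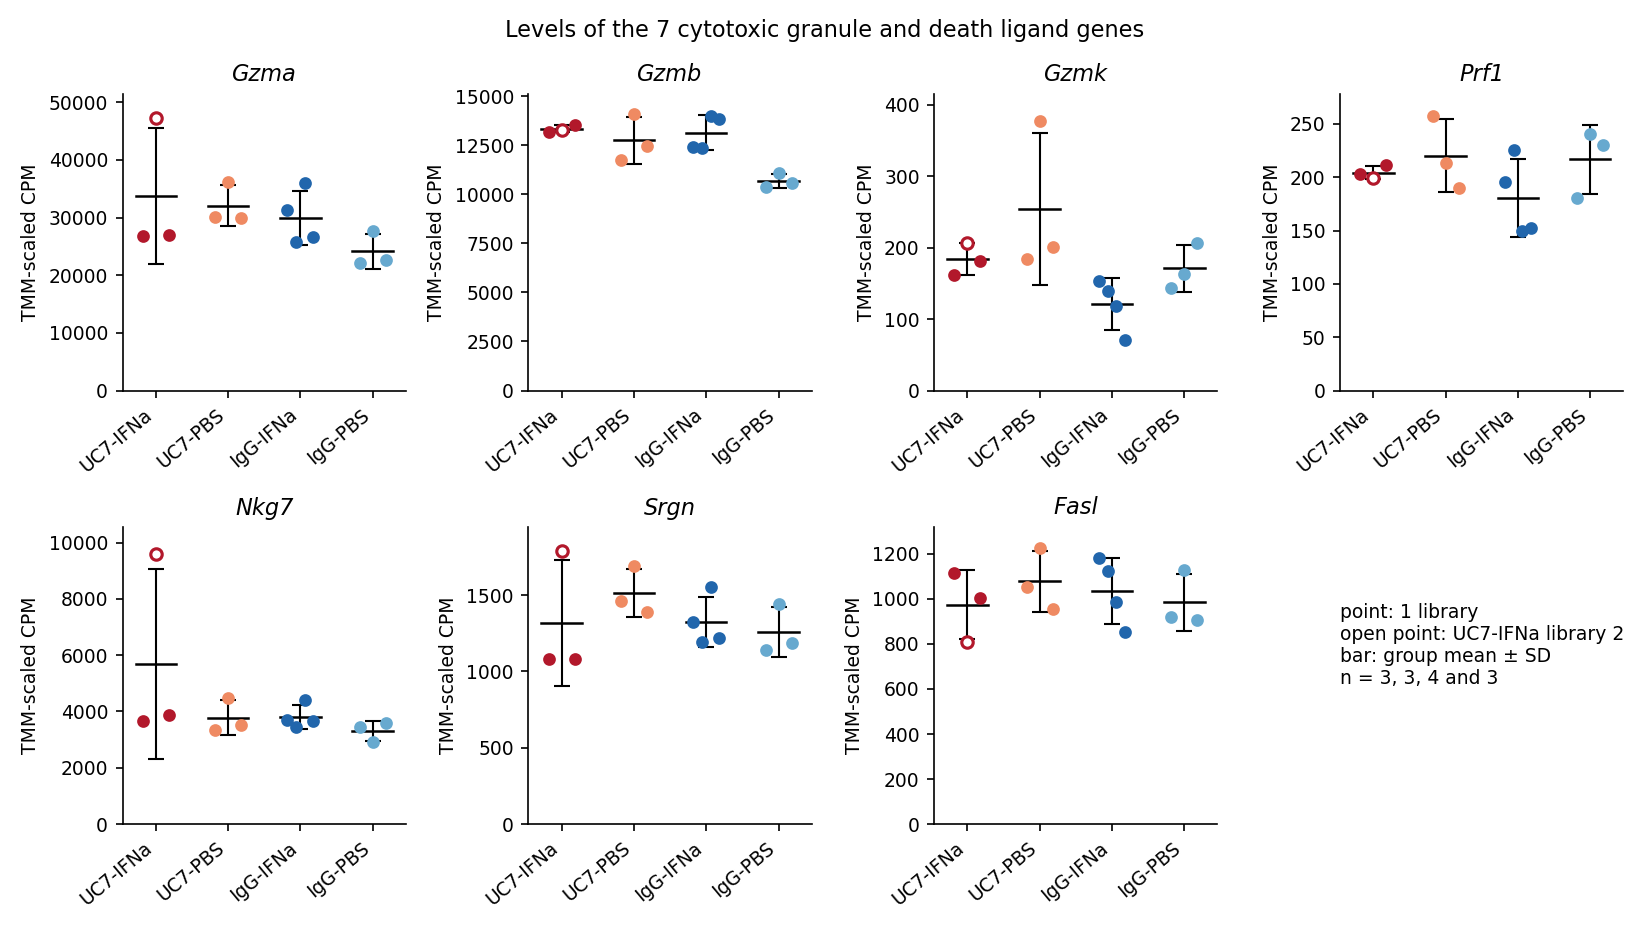
Each panel plots 1 gene's level in CPM scaled by the trimmed mean of M values (TMM) on a linear axis from 0, for UC7-IFNa, UC7-PBS, IgG-IFNa and IgG-PBS, with 1 point per library and bars for the mean ± SD. The open point, UC7-IFNa library 2, is the highest of all 13 for Gzma (47294), Nkg7 (9592) and Srgn (1792) and lies with its group mates for Gzmb (13290).

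IFNa left the transcripts of the 7 genes without a change that passed the test, whichever antibody came before it. After UC7-13D5, 0 of 7 were called by edgeR at an adjusted p under 0.05, the background being 0.36% of all tested genes, 0.335% higher and 0.0253% lower, and 0 had an unadjusted p under 0.05 (7.59% of all). After IgG, 0 of 7 were called (0.827% of all) and 1, Gzmb, had an unadjusted p under 0.05 (10.9% of all). Averaged over both antibodies, 0 were called (1.99% of all) and 1, Gzmk, had an unadjusted p under 0.05 (14.8% of all). The interaction, which asks whether IFNa acts differently after UC7-13D5, called 0 of 7 and 0% of all genes, with 0 and 3.17% at an unadjusted p under 0.05. DESeq2 called 0 of 7 in each of these, beside 0.89% of all tested genes after UC7-13D5, 2.56% after IgG, 4.91% averaged and 0.0316% for the interaction. The median log2 fold change of the 7 was -0.11 after UC7-13D5 and 0.07 after IgG, beside 0.022 and -0.012 for all tested genes.

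UC7-13D5 against IgG gave no called gene among the 7 either. With IFNa, edgeR called 0 of 7 (0.0758% of all tested genes) and Gzmk and Nkg7 had an unadjusted p under 0.05 (7.19% of all). With PBS it called 0 of 7 (0.00632% of all) and 0 had an unadjusted p under 0.05 (5% of all). Averaged over PBS and IFNa it called 0 of 7 (0.657% of all), with Gzmk at an unadjusted p under 0.05 (8.06% of all). DESeq2 called 0 of 7 in each, beside 0.758% of all tested genes with IFNa, 0.436% with PBS and 1.87% averaged. All 7 fitted differences were positive with PBS, as were 7644 of 15835 tested genes, with a median of 0.26 beside -0.01 for all genes. All 12 goblet and Paneth, all 12 enterocyte and all 10 tested myeloid markers were positive there too. So were 8 of 12 gamma delta and 5 of 8 alpha beta T cell markers. With IFNa 5 of the 7 were positive, as were 8161 of 15835 tested genes, with a median of 0.17 beside 0.011. Gzma and Nkg7 were negative with IFNa without UC7-IFNa library 2. These comparisons share libraries with each other and with those of IFNa.

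**Figure D2:**
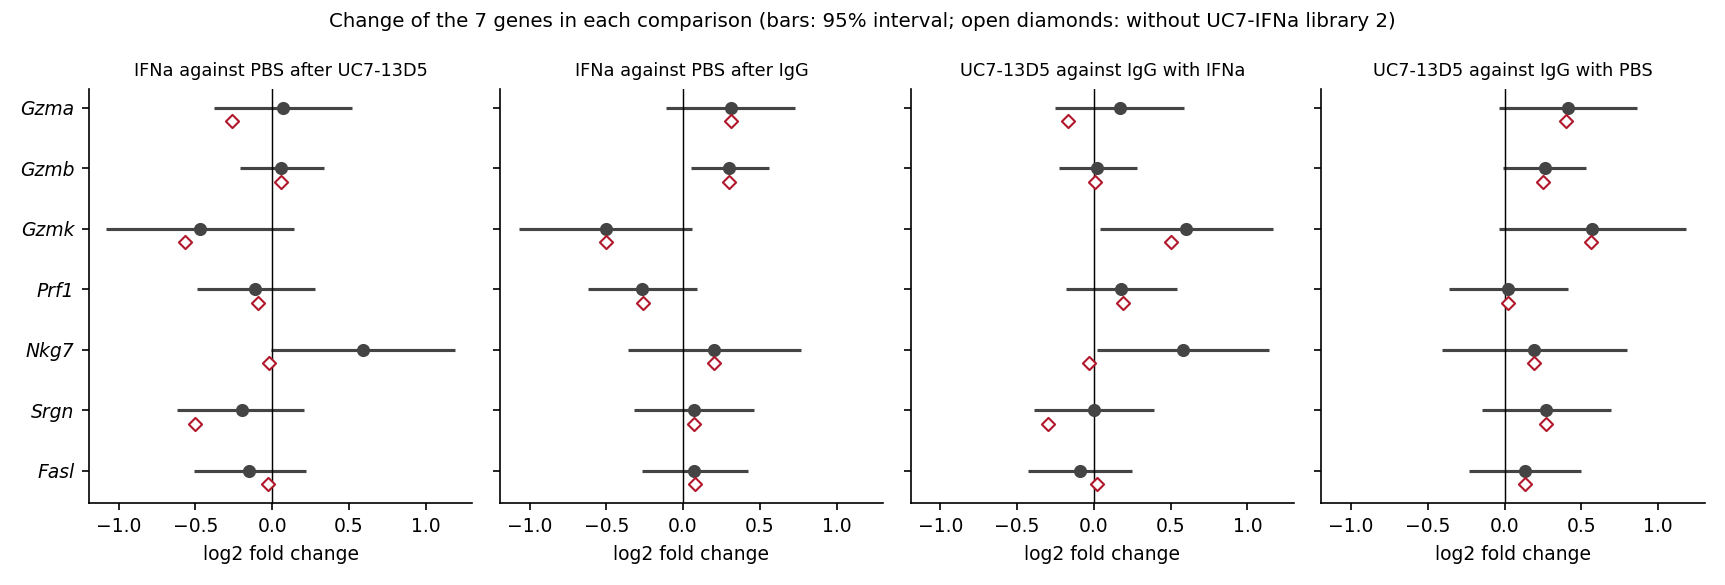
Each panel is 1 comparison, with the log2 fold change of the 7 genes on the horizontal axis, dots for the fit over all 13 libraries, bars for its 95% interval and open diamonds for the fit without UC7-IFNa library 2. The intervals of Gzmb after IgG (0.05 to 0.56) and of Gzmk (0.04 to 1.17) and Nkg7 (0.02 to 1.14) between antibodies with IFNa leave out 0, and the diamond of Nkg7 falls to -0.03 there.

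Gzma, granzyme A, a tryptase that cleaves after basic residues (ENSMUSG00000023132, mm39 chromosome 13, 113230359 to 113237516), had 26827, 47294 and 26962 CPM in UC7-IFNa and 30082, 36166 and 29893 CPM in UC7-PBS. It had 31395, 25840, 36026 and 26557 CPM in IgG-IFNa and 22187, 27655 and 22628 CPM in IgG-PBS. The UC7-PBS libraries all lay above the IgG-PBS ones, and Gzma overlapped in the other comparisons. Of all tested genes, 12.4% had no overlap between UC7-PBS and IgG-PBS. There the log2 fold change was 0.41 (95% interval -0.04 to 0.86, edgeR adjusted p = 1), and it was 0.40 (SE 0.14, unadjusted p = 0.00974, edgeR adjusted p = 0.4) when UC7-IFNa library 2, which bears on it through the shared spread alone, was left out. For IFNa the log2 fold change of Gzma was 0.07 after UC7-13D5 (-0.38 to 0.52) and 0.31 after IgG (-0.11 to 0.73). Without UC7-IFNa library 2 the value after UC7-13D5 was -0.26 (SE 0.16, edgeR adjusted p = 0.526), so 1 library decided its sign.

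Gzmb, granzyme B, a protease that cleaves after aspartate and activates caspases (ENSMUSG00000015437, chromosome 14, 56496295 to 56499718), had 13193, 13290 and 13545 CPM in UC7-IFNa and 11756, 14083 and 12432 CPM in UC7-PBS. It had 12398, 12356, 13966 and 13847 CPM in IgG-IFNa and 10360, 11061 and 10570 CPM in IgG-PBS. The IgG-PBS libraries were the 3 lowest of the 13, below every library given IFNa or UC7-13D5. How many of all tested genes show such a split was not counted. The log2 fold change of IFNa after IgG was 0.30 (SE 0.12, unadjusted p = 0.0241, edgeR adjusted p = 0.36), with no overlap between the groups (14% of all tested genes had none), and it was 0.22 without IgG-IFNa libraries 3 and 4 and 0.19 with the Y-linked transcripts as a covariate. UC7-PBS and IgG-PBS did not overlap either, as for 12.4% of all tested genes. The log2 fold change there was 0.26 (-0.01 to 0.53), and it was 0.06 with that covariate. IFNa after UC7-13D5 gave 0.06 (-0.21 to 0.34), and UC7-13D5 with IFNa gave 0.02 (-0.23 to 0.28). The interaction was -0.24 (-0.61 to 0.14, edgeR adjusted p = 1), so a response of Gzmb that differs with the antibody was not shown. The summed markers of goblet and Paneth cells were at 126 to 707 CPM in IgG-PBS, 769 to 1442 CPM in IgG-IFNa and 1120 to 2314 CPM in UC7-PBS. In UC7-IFNa libraries 1, 2 and 3 they were at 543, 1521 and 420 CPM. Their part in the values of Gzmb was not tested.

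Gzmk, granzyme K, another tryptase, on the same chromosome as Gzma (ENSMUSG00000042385, chromosome 13, 113308142 to 113362443), had 162, 207 and 182 CPM in UC7-IFNa and 184, 377 and 201 CPM in UC7-PBS. It had 154, 140, 119 and 70.4 CPM in IgG-IFNa and 143, 163 and 207 CPM in IgG-PBS. The UC7-IFNa libraries all lay above the IgG-IFNa ones, and 6.78% of all tested genes had no overlap there, and the lowest of all 13 was IgG-IFNa library 4. With IFNa the log2 fold change of UC7-13D5 was 0.60 (SE 0.27, unadjusted p = 0.038, edgeR adjusted p = 0.661). It was 0.32 without IgG-IFNa libraries 3 and 4 and 0.97 with the Y-linked covariate. Averaged over PBS and IFNa the log2 fold change of Gzmk was 0.59 (SE 0.20, unadjusted p = 0.00875, edgeR adjusted p = 0.32). The averaged value was 0.38 without UC7-PBS library 2 and 1.19 with the Y-linked covariate, both short of the threshold. IFNa averaged over both antibodies gave -0.49 (SE 0.20, edgeR adjusted p = 0.248), which was -0.28 without UC7-PBS library 2. That library, at 377 CPM, also carried the UC7-13D5 value with PBS, which was 0.57 with it and 0.17 without it. Gzmk overlaps Esm1 on the opposite strand, whose count was at most 423, and whether counting used strand is not stated.

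Prf1, perforin, which opens the target membrane to granzymes (ENSMUSG00000037202, chromosome 10, 61133612 to 61140460), had 203, 199 and 211 CPM in UC7-IFNa and 257, 213 and 190 CPM in UC7-PBS. It had 195, 225, 150 and 152 CPM in IgG-IFNa and 180, 240 and 230 CPM in IgG-PBS. The groups overlapped in every comparison, and the 2 lowest were IgG-IFNa libraries 3 and 4. The log2 fold change of IFNa was -0.11 after UC7-13D5 (-0.49 to 0.28) and -0.27 after IgG (-0.62 to 0.09). Between antibodies it was 0.18 with IFNa (-0.18 to 0.54) and 0.02 with PBS (-0.36 to 0.41).

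Nkg7, a membrane protein of cytotoxic granules that is needed for their release (ENSMUSG00000004612, chromosome 7, 43086497 to 43087674), had 3644, 9592 and 3857 CPM in UC7-IFNa and 3355, 4489 and 3510 CPM in UC7-PBS. It had 3688, 3455, 4415 and 3657 CPM in IgG-IFNa and 3447, 2899 and 3576 CPM in IgG-PBS. A single library, UC7-IFNa 2, stood far above the others, and the remaining 12 lay between 2899 and 4489 CPM. UC7-13D5 with IFNa gave 0.58 (SE 0.26, unadjusted p = 0.0424, edgeR adjusted p = 0.675) and IFNa after UC7-13D5 gave 0.59 (SE 0.28, edgeR adjusted p = 0.669). Without that library they were -0.03 (SE 0.14) and -0.02 (SE 0.15).

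Srgn, serglycin, the proteoglycan that holds granzymes in the granule (ENSMUSG00000020077, chromosome 10, 62329612 to 62363231), had 1079, 1792 and 1083 CPM in UC7-IFNa and 1464, 1694 and 1392 CPM in UC7-PBS. It had 1326, 1192, 1553 and 1216 CPM in IgG-IFNa and 1139, 1443 and 1189 CPM in IgG-PBS. UC7-IFNa held both the highest library of the 13 and the 2 lowest, and all the groups overlapped. The log2 fold change of IFNa after UC7-13D5 was -0.20 (-0.62 to 0.21) and -0.50 without UC7-IFNa library 2 (edgeR adjusted p = 0.175). After IgG it was 0.07 (-0.32 to 0.46). UC7-13D5 gave 0 with IFNa (-0.39 to 0.39), or -0.30 without UC7-IFNa library 2 (SE 0.14, edgeR adjusted p = 0.823), and 0.27 with PBS (-0.15 to 0.69).

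Fasl, the death ligand (ENSMUSG00000000817, chromosome 1, 161608258 to 161616065), had 1114, 808 and 1003 CPM in UC7-IFNa and 1053, 1224 and 957 CPM in UC7-PBS. It had 1182, 1124, 985 and 855 CPM in IgG-IFNa and 919, 1130 and 905 CPM in IgG-PBS. Every group spanned much the same range, and UC7-IFNa library 2, the highest for Nkg7, was the lowest here. The log2 fold change of IFNa was -0.15 after UC7-13D5 (-0.51 to 0.22) and 0.07 after IgG (-0.27 to 0.42), and that of UC7-13D5 was -0.09 with IFNa (-0.43 to 0.25) and 0.13 with PBS (-0.23 to 0.5). Without UC7-IFNa library 2 the value of IFNa after UC7-13D5 was -0.03 and that of UC7-13D5 with IFNa was 0.02.

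The 7 genes were not equally steady between libraries. The biological coefficient of variation in edgeR was 0.132 for Gzmb, lower than for all but 6.67% of the 300 genes nearest to it in level. It was 0.251 for Nkg7 and 0.25 for Gzmk, above 91.7% and 96.3% of their nearest 300 genes. It was 0.195 for Gzma, 0.181 for Srgn, 0.168 for Prf1 and 0.162 for Fasl, with 40.7% to 72.3% of neighbours lower. Without UC7-IFNa library 2, an omission chosen after seeing the data, the coefficient was 0.13 for Nkg7, with 55.3% of neighbours lower, so its place among the less steady genes rested on that library. Gzmk was at 0.262 without it, above 99% of its neighbours, and Gzmb at 0.11, above 11%. The neighbours of Gzma and Gzmb, at the top of the range, are of lower level than they are.

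Gzma and Srgn went up and down together within the groups. With each group's mean removed, their log2 levels correlated at r = 0.991 over the 13 libraries (Spearman 0.984), and at 0.976 without UC7-IFNa library 2. This pair was singled out after its values were seen. Among the 9291 genes whose mean log2 CPM was 3 or more, Srgn followed Gzma most closely, with and without that library. Psmb4, a proteasome subunit, came next at 0.989, and 85 genes reached 0.95, or 10 without that library. Nkg7 followed Gzma at 0.835, and at 0.442 without UC7-IFNa library 2. Gzmb followed Gzma at 0.339, and at 0.591 without that library, so the order of Nkg7 and Gzmb depended on it. Prf1 was at -0.139, and at -0.13 without it. The library with the most Gzma in each of the 4 groups was also the one with the most Srgn. The points share library, depth and scaling, so they describe these libraries.

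**Figure D3:**
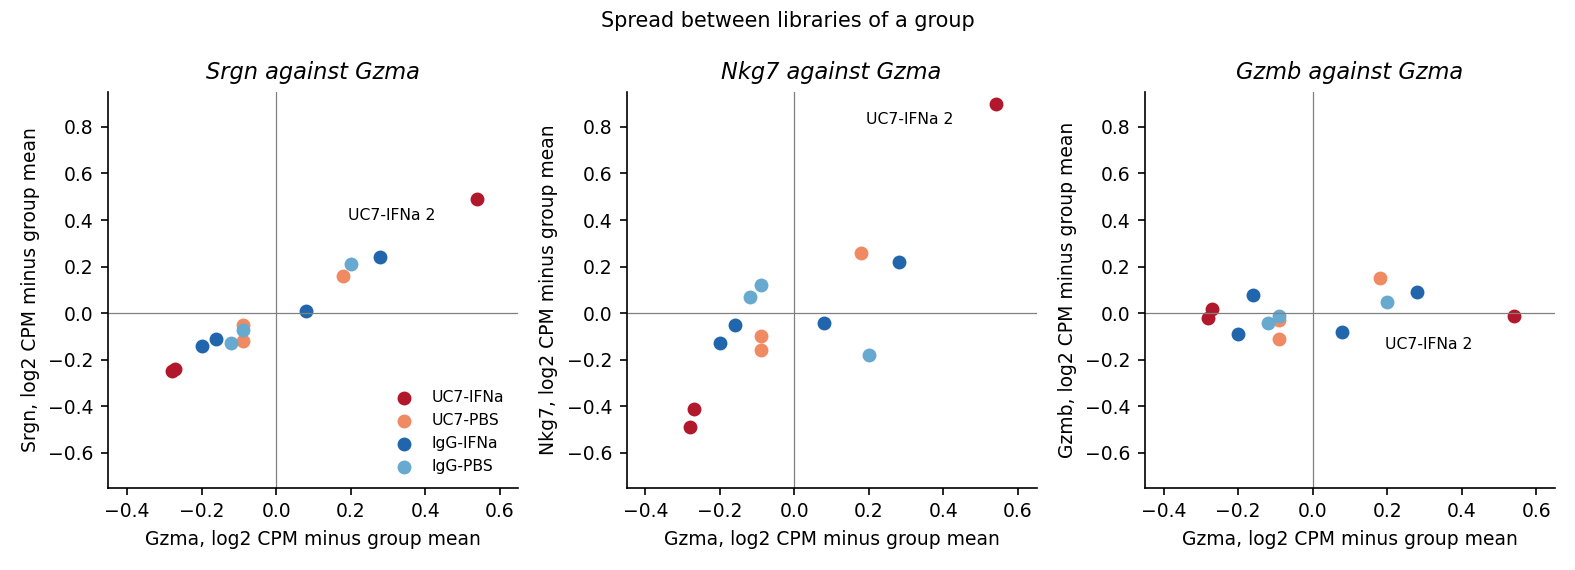
Each panel plots, for 13 libraries coloured by group, the log2 CPM of Srgn, Nkg7 or Gzmb minus its group mean against the same for Gzma. Srgn follows Gzma along a line in every group (r = 0.991), while Gzmb lies between -0.11 and 0.15 with r = 0.339, or 0.591 without UC7-IFNa library 2, where Gzma is highest.

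The libraries also differed in the balance of short and long transcripts, and this balance moved with the same genes. Of 9278 genes with a known transcript length and a mean log2 CPM of 3 or more, the 810 under 1 kb had a median log2 level 0.96 higher in UC7-IFNa library 2 than in libraries 1 and 3 of its group, and the 2924 of 4 kb or more had one of -0.41. In that library, relative to the same mates, Nkg7 (881 bases) stood at 1.36, Gzma (996) at 0.81, Gzmk (1304) at 0.27, Gzmb (1436) at -0.01, Srgn (1727) at 0.73, Fasl (1937) at -0.39 and Prf1 (2474) at -0.06, all log2 differences. A short-minus-long measure, the median deviation of genes under 1 kb minus that of genes of 4 kb or more, was 1.07 there and between -0.32 and 0.34 in the other 12 libraries. With group means removed, Gzma followed it at r = 0.953 (0.884 without UC7-IFNa library 2), Nkg7 at 0.948 (0.739), Srgn at 0.941 (0.832) and Gzmb at 0.353 (0.799). Gzmk was at 0.337 (0.399), Prf1 at -0.281 (-0.458) and Fasl at -0.378 (0.2). In each of the 4 groups the library highest in Gzma and Srgn, UC7-IFNa 2, UC7-PBS 2, IgG-IFNa 3 and IgG-PBS 2, was also the one with the largest short-minus-long value. The part of this balance in the spread of the 7 genes was not tested.

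**Figure D4:**
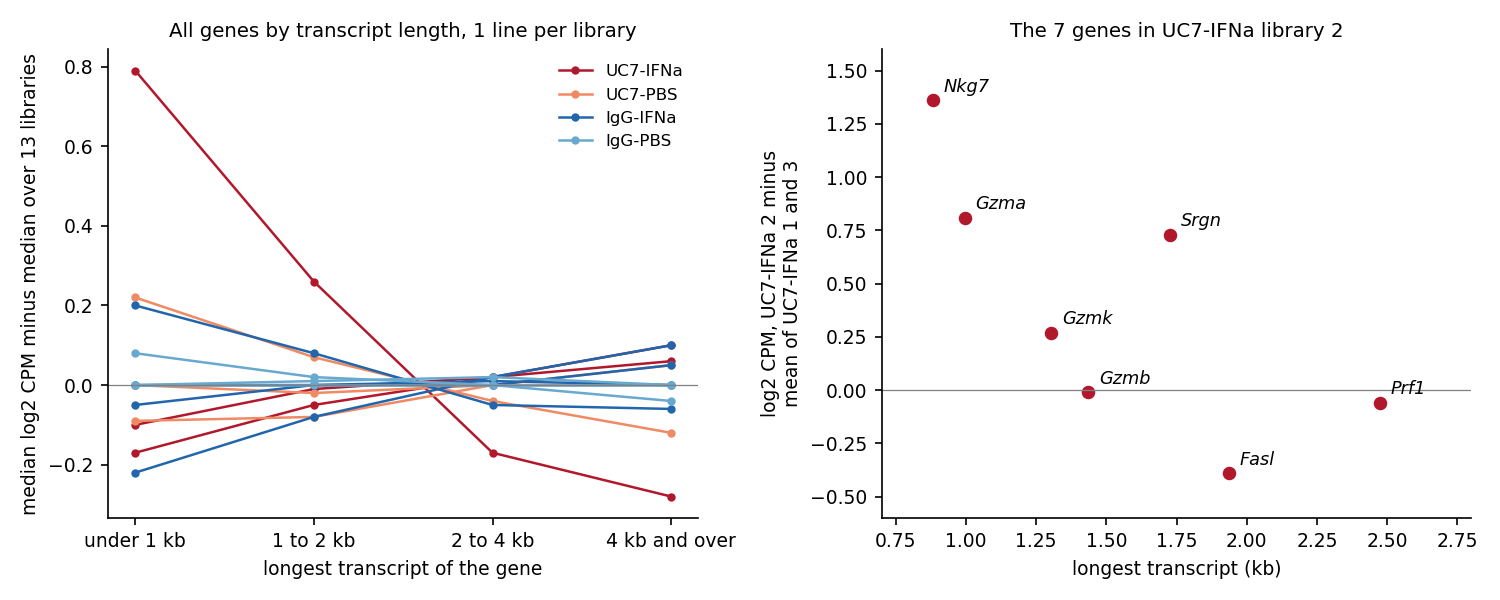
The left panel plots, for each library, the median log2 deviation from the 13-library median of genes grouped by their longest transcript, and the right panel plots the 7 genes in UC7-IFNa library 2 against transcript length in kb. UC7-IFNa library 2 runs from 0.79 for genes under 1 kb to -0.28 for those of 4 kb and over. Nkg7 and Gzma, the shortest of the 7, are the highest in the right panel. Length does not order the rest, as Srgn (0.73) lies above the shorter Gzmk (0.27) and Gzmb (-0.01).

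The ratio of Gzma to Gzmb within a library does not depend on how libraries are scaled. It was 2.03, 3.56 and 1.99 in UC7-IFNa, 2.56, 2.57 and 2.4 in UC7-PBS, 2.53, 2.09, 2.58 and 1.92 in IgG-IFNa, and 2.14, 2.5 and 2.14 in IgG-PBS. Every library thus held more Gzma than Gzmb counts, and UC7-IFNa library 2 lay outside the range of the others. The mean log2 ratio was 1.22 ± 0.32 with IFNa and 1.25 ± 0.12 with PBS (SD, n = 7 and 6), a difference of -0.03 (two-sided exact permutation p = 0.865, adjusted over 2 tests 0.865). It was 1.31 ± 0.3 after UC7-13D5 and 1.18 ± 0.17 after IgG (SD, n = 6 and 7), a difference of 0.13 (exact permutation p = 0.376, adjusted 0.752). Without UC7-IFNa library 2 the differences were -0.13 (exact p = 0.158) and 0.02 (exact p = 0.851).

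Of 7 other granzymes, 3 were in the table, all at low levels, and Gzmd, Gzme, Gzmg and Gzmn were not analysed here. Gzmc, of the granzyme B family, stood at 5.54 to 9.53 CPM, Gzmm at 0.174 to 1.63 CPM, and Gzmf at no more than 0.259 CPM in any library. The 2 that were tested, Gzmc and Gzmm, were not called in any comparison by edgeR, and Gzmm had 1 unadjusted p under 0.05, for IFNa after UC7-13D5.

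Among other genes of the pathway, 2 of 5 serpins listed as granzyme inhibitors rose with IFNa after IgG. The list came from general knowledge, and inhibition of a granzyme by each of its members was not examined. Serpinb9, which blocks granzyme B, had 364, 455, 401 and 382 CPM in IgG-IFNa and 221, 245 and 202 CPM in IgG-PBS, and it rose by 0.85 on the log2 scale (SE 0.16, edgeR adjusted p = 0.0195). Serpinb6b, a related serpin, had 418, 375, 478 and 462 CPM in IgG-IFNa and 274, 285 and 231 CPM in IgG-PBS, and it rose by 0.72 (SE 0.15, edgeR adjusted p = 0.0368). The groups did not overlap for either, as for 14% of all tested genes. The other 3 listed serpins did not pass, with a log2 fold change of -0.41 for Serpinb6a, -0.44 for Serpina3g and 1.69 (SE 1.44) for Serpinb9b. After UC7-13D5, Serpinb9 had 373, 350 and 495 CPM with IFNa and 302, 377 and 302 CPM with PBS (0.31, SE 0.16), and Serpinb6b 326, 307 and 409 CPM with IFNa and 308, 370 and 325 CPM with PBS (0.05, SE 0.16), neither past the threshold. The interactions were -0.54 for Serpinb9 (SE 0.23, unadjusted p = 0.0305) and -0.66 for Serpinb6b (SE 0.22, unadjusted p = 0.00757), both with an edgeR adjusted p of 1, so a weaker response after UC7-13D5 was not shown. Of all tested genes, 0.619% rose after IgG. After UC7-13D5, 0 of the 5 listed serpins were called (0.36% of all tested genes). There 1, Serpinb6a, had an unadjusted p under 0.05 (7.59% of all), and it was lower with IFNa (-0.48, SE 0.15, edgeR unadjusted p = 0.00633). Serpinb9 passed after IgG in 7 of 13 fits that each left out 1 library (0.78 to 0.92) and Serpinb6b in 5 of 13 (0.64 to 0.78). The calls were lost without any IgG-PBS library, without IgG-IFNa library 3 or 4, for Serpinb9 also without IgG-IFNa library 2, and for Serpinb6b also without IgG-IFNa library 1 or UC7-PBS library 1 or 3. Of 10 other settings each passed in 6. Serpinb9 was at 0.88 without IgG-IFNa libraries 3 and 4, at 0.82 without libraries 1 and 2, and at 0.87 with the Y-linked covariate, all short of the threshold. Serpinb6b was short of it at 0.59 without libraries 3 and 4, at 0.52 with the covariate and at 0.68 with no scaling beyond total counts. The goblet and Paneth cell markers also differed in this comparison, with all 12 positive, 2 called and a median log2 fold change of 1.47, and their part was not tested.

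Averaged over both antibodies, IFNa raised Serpinb9 to 403 CPM against 275 CPM with PBS (log2 fold change 0.58, SE 0.11, edgeR adjusted p = 0.0128) and lowered Serpinb6a, another serpin, to 63 CPM against 85.9 CPM (-0.45, SE 0.10, edgeR adjusted p = 0.0384). All IFNa libraries lay below all PBS libraries for Serpinb6a (1.76% of all tested genes had no overlap in either direction). Of all tested genes, 1.57% rose and 0.423% fell in that comparison. Among 10 other death ligands and receptors, Tnfrsf1a, the receptor for tumour necrosis factor, rose to 157 CPM against 114 CPM (0.47, SE 0.10, edgeR adjusted p = 0.0239). Among 10 granule proteins, Cd63, a tetraspanin of granule membranes, rose to 4.23 CPM against 2.37 CPM (0.91, SE 0.22, edgeR adjusted p = 0.04995). These calls were narrow: of 13 fits that each left out 1 library, Serpinb9 passed in 11, Tnfrsf1a in 6, and Serpinb6a and Cd63 in 2 each. Serpinb9 was at 0.55 and short of the threshold without IgG-PBS library 3 or UC7-PBS library 1. Tnfrsf1a, at 0.42 to 0.5, lost its call without IgG-PBS library 1 or 3, IgG-IFNa library 3 or 4, UC7-PBS library 2 or 3, or UC7-IFNa library 3. Serpinb6a kept its call only without IgG-PBS library 1 or UC7-IFNa library 2, and Cd63 only without UC7-PBS library 1 or UC7-IFNa library 2. Of 9 other settings, Serpinb9 and Tnfrsf1a passed in 6, Serpinb6a in 5 and Cd63 in 1, DESeq2. Of the 19 tested genes of granule biogenesis and exocytosis and the 11 transcription factors of the cytotoxic programme, edgeR called 0 in any comparison, with 4 of each at an unadjusted p under 0.05 for IFNa averaged over both antibodies, where 14.8% of all tested genes were.

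Lamp1, a lysosomal membrane protein that lines the granules, was higher after UC7-13D5. It had 151, 269 and 251 CPM in UC7-IFNa and 286, 265 and 162 CPM in UC7-PBS, and 118, 51.1, 48.5 and 44.8 CPM in IgG-IFNa and 48.3, 123 and 99.3 CPM in IgG-PBS. The 6 UC7-13D5 libraries all lay above the 7 IgG ones, which 0.644% of all tested genes did in either direction. With IFNa the log2 fold change was 1.77 (SE 0.36, edgeR adjusted p = 0.0746). With PBS it was 1.4 (SE 0.39, edgeR adjusted p = 0.419), and both were short of the threshold. Averaged over PBS and IFNa, Lamp1 rose by 1.58 on the log2 scale (SE 0.27, edgeR adjusted p = 0.0126). The averaged value passed in 11 of 13 fits that left out 1 library and in 6 of 9 other settings. It was at 1.5 without UC7-IFNa library 2 and 1.54 without UC7-PBS library 2, both short of the threshold. Lamp1 was the 1 of 10 granule proteins called in the averaged comparison, in which 0.549% of all tested genes rose. With the Y-linked transcripts as a covariate it was at 2.37 and did not pass, and with the antibody and sex-linked transcripts moving together the source of the difference cannot be told apart.

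**Figure D5:**
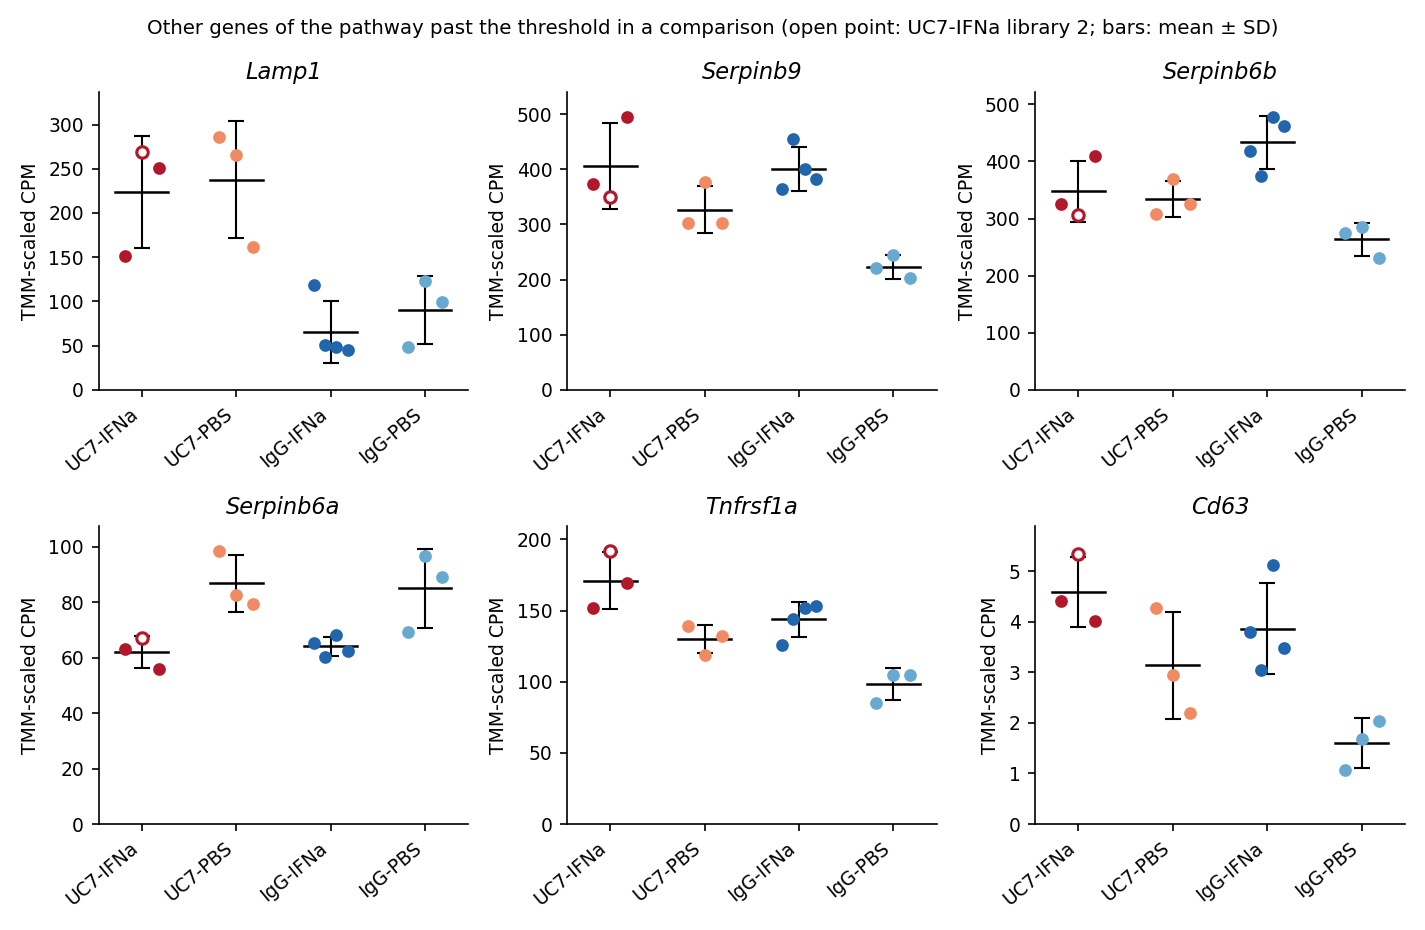
Each panel plots the TMM-scaled CPM of 1 other gene of the pathway on a linear axis from 0, with 1 point per library and bars for the mean ± SD, in UC7-IFNa, UC7-PBS, IgG-IFNa and IgG-PBS. Lamp1 lies at 151 to 286 in the UC7-13D5 libraries and at 44.8 to 123 in the IgG libraries, and the IgG-PBS libraries are the lowest for Serpinb9 and Serpinb6b.

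Markers of other cells did not move evenly between the groups. The 12 goblet and Paneth cell markers summed to 420 to 1521 CPM in UC7-IFNa, 1120 to 2314 CPM in UC7-PBS, 769 to 1442 CPM in IgG-IFNa and 126 to 707 CPM in IgG-PBS, the group with the least Gzmb. The 12 absorptive enterocyte markers summed to 209 to 362, 251 to 303, 202 to 299 and 150 to 261 CPM in the same 4 groups. Markers of alpha beta T cells, which could also bring granzymes, summed to 1691 to 2750, 1540 to 1809, 1521 to 2161 and 1538 to 1899 CPM. Most of each sum came from the receptor constant genes Trac, Trbc1 and Trbc2. Of the 8 alpha beta markers tested, edgeR called 1, lower, for IFNa after IgG (0.208% of all tested genes), where 3 were positive and 5 negative. For UC7-13D5 with IFNa, 0 were called and all 8 were positive, as were 8161 of 15835 tested genes. Their median log2 fold change there was 0.37, with 2 at an unadjusted p under 0.05 (7.19% of all). Natural killer and innate lymphoid markers summed to 92 to 108, 101 to 144, 80 to 117 and 110 to 125 CPM, and mast cell markers to at most 6.97 CPM. Myeloid and dendritic cell markers summed to 107 to 140, 64 to 112, 63.5 to 114 and 62 to 75 CPM, and for IFNa averaged over both antibodies 1 of 10 tested was called, higher, with 6 at an unadjusted p under 0.05. B and plasma cell markers summed to 436 to 1066 CPM over all libraries, highest in a UC7-IFNa library, and 1 of 6 tested was called there, also higher. Their part in the values of the 7 genes was not tested.

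The genes whose levels ran most like each of the 7 over the 13 libraries, by Spearman correlation, were named by rule among the 8677 genes left once clone names, mitochondrial genes and the 7 themselves were set aside. They were Ccl6 (0.912), Sf3b6 and Bud31 for Gzma, Arpc3 (0.923), Kin and Sfr1 for Gzmb, and Elk3 (0.923), Glrx5 and Smyd2 for Gzmk. For Prf1 they were Tmed2 (0.94), Rpn2 and Fbxo46, and for Nkg7 Ube2a (0.94), Plaat3 and Atp6v1g1. For Srgn they were Rpl29 (0.923), Atox1 and Atpif1, and for Fasl Bnip2 (0.912), Akirin1 and Tgds. No gene was named for more than 1 of the 7.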

How the data were processed

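Per the labels' protocols, an RNeasy kit gave the RNA and SMART-Seq HT the libraries. STAR 2.7.8a, Partek, DESeq2 and the build mm39 are named in the submitters' processing notes without their roles. The table of expected counts that the authors deposited was unscaled, and 38% of its values were not whole. Their second deposited table, a signal of normalized counts, was used only for its factor per library. Groups came from the sample titles. Counts were rounded, genes kept with filterByExpr (minimum count 10) and libraries scaled by TMM. All 13 libraries entered a single model with 1 term for each group (edgeR 4.0.16, R 4.3.3), with two-sided quasi-likelihood F tests and Benjamini-Hochberg adjustment over 15835 genes at 0.05. The averaged comparisons weight the 2 levels of the other factor equally. The procedure was tested on simulated data. Log2 CPM values used a prior count of 2. Transcript lengths are GENCODE's longest protein-coding transcript (99.8% of tested genes matched), and promoters are RefSeq's, matched for all 7 genes.

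The 7 genes, the lists and the tests were chosen with earlier results of these data known. Named genes were the 7, genes of the pathway lists past the threshold (up to 6 per comparison), and the 3 genes most like each of the 7 among genes whose mean log2 CPM was 3 or more, leaving out clone names and mitochondrial genes. Alternatives covered scaling, filter, DESeq2 1.42.0, groups in the fit, a replicate block, each library left out, pairs of IgG-IFNa libraries left out, and Y-linked transcripts as a covariate.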

Additional observations from a re-analysis of the deposited data

Results flagged for a closer look

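Lamp1 stood at 118 CPM in IgG-IFNa library 1, far from the 51.1, 48.5 and 44.8 CPM of the other 3 libraries of that group, with a gap of 0.914 of the group's range against a critical value of 0.829. Chance gives such a gap in about 1 of 20 groups, and 15 were looked at, so 1 is close to what chance gives.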

How the results depend on the processing

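Under 23 other settings (22 for the interaction and the averaged comparisons, where a fit to only the groups compared does not apply), edgeR and DESeq2 called 0 of the 7 genes in every comparison, and the lowest adjusted p was 0.106, for Gzmb in IFNa against PBS after IgG by DESeq2. Of 1106 values, 9 changed sign with a value past its own standard error. Without UC7-IFNa library 2, Gzma was at -0.26 for IFNa after UC7-13D5 and -0.17 for UC7-13D5 with IFNa, and Nkg7 at -0.02, -0.03 and, for the interaction, -0.22. Over the fits that each left out 1 library, these values ran from -0.26 to 0.21 and -0.17 to 0.3 for Gzma, and from -0.02 to 0.83, -0.03 to 0.81 and -0.22 to 0.62 for Nkg7. Without IgG-IFNa libraries 3 and 4, Prf1 was at -0.04 for UC7-13D5 with IFNa. With the Y-linked covariate, Prf1 was at 0.03 for IFNa after IgG, Gzmk at -0.44 for the interaction and Gzmb at 0 for UC7-13D5 averaged; beyond the omission of the library, the causes were not tested. Another 48 sign changes lay within 1 standard error of 0. The same replicate numbers did not pair the libraries (correlations from -0.21 to 0.135, 2 of 18 above 0.1). With a replicate block, 0 of the 7 were called, and Serpinb9 (0.87 after IgG and 0.59 averaged), Serpinb6b (0.68), Serpinb6a (-0.44), Tnfrsf1a (0.45), Cd63 (0.93) and Lamp1 (1.51) lost their calls. The number of all genes called depended on the setting. DESeq2 against edgeR called 141 and 57 for IFNa after UC7-13D5, 406 and 131 after IgG, 120 and 12 for UC7-13D5 with IFNa, 69 and 1 with PBS, 5 and 0 for the interaction, 777 and 315 for IFNa averaged and 296 and 104 for UC7-13D5 averaged. The replicate block gave 34, 27, 1, 1, 0, 146 and 6 in that order. IFNa after IgG gave 430 without UC7-IFNa library 2 and 21 without IgG-IFNa libraries 3 and 4. At 3 or 4 libraries per group, the 95% intervals of the 7 genes in the comparisons other than the interaction reached from -1.08 to 1.19.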
